A study of Triticum aestivum with 48 samples.

Results

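The 3 gibberellin 20-oxidase homoeologues of bread wheat, GA20ox1a, GA20ox1b and GA20ox1d, were followed across roots and shoots of 4 wheat genotypes grown on low or standard nitrogen. The members are all probe sets of the Affymetrix Wheat Genome Array whose deposited annotation pairs them with one of these symbols or synonyms: 3 of the 771 annotated genes and 4 of 61290 probe sets. GA20ox1a is read by Ta.23668.1.S1_at, GA20ox1b by Ta.23667.1.S1_at, and GA20ox1d by Ta.141.1.S1_at and Ta.141.1.S1_x_at, called the S1_at and S1_x_at probe sets of GA20ox1d from here on. In assembly IWGSC CS RefSeq v2.1, GA20ox1a lies on chromosome 4A, GA20ox1b on 5B and GA20ox1d on 5D. The rule uses names in the annotation.

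Seedlings of Triticum aestivum genotypes K307, K9107, HD2967 and Chotilarma (CL) were grown for 15 days in vermiculite and perlite, 5 seeds to a pot. The nitrogen source was calcium nitrate at 0.08 mM (stressed) or 8 mM (control) in an otherwise nitrogen-free modified MS medium. Total RNA of roots or shoots was hybridised, 3 arrays for each of the 16 combinations of genotype, tissue and nitrogen supply and 48 arrays in all. The design text speaks of separate sets of pots, and the labels do not say whether an array holds 1 seedling or a pool. P-values therefore measure the spread between these arrays.

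Gibberellin 20-oxidases are soluble dioxygenases that turn gibberellin precursors into the direct substrates of the 3-oxidases, which make the bioactive hormone. 2-oxidases inactivate it, and bioactive gibberellin drives stem and leaf elongation, in part by removing DELLA repressors. The 20-oxidase step is a known point of control, and loss of a family member gives the rice semi-dwarf sd1. Homoeologues are the copies of one gene in the A, B and D subgenomes of hexaploid wheat, and the long arm of chromosome 4A carries a segment that was once on 5A. No other gibberellin gene (3-oxidase, 2-oxidase, earlier enzyme, receptor or DELLA repressor) was found by symbol or synonym in the annotation used here. The pathway list thus held 0 named members beside these 3 genes. Of the 771 annotated genes only 102 carry an informative name, and the search could not recognise a gibberellin gene among the others. The nucleotide sequences of the probes were not used here, and how far each probe set reads the transcripts of the other homoeologues was not tested. The suffix x_at marks a probe set whose probes may also match other transcripts.

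Values are deposited log2 signals. Array medians fell into 4 separate ranges of 12 arrays: 1.14 to 1.26, 4.33 to 4.47, 4.61 to 4.68 and 5.32 to 5.39, called normalization sets here. The lowest range consists of the 12 CL arrays. Scale and genotype cannot be told apart for CL, which is described by itself. The other sets each mix K307, K9107 and HD2967, whose 36 arrays were brought to the scale of one set by offsets from the linear model (set-adjusted log2 signal). In roots against shoots, 24 of the 36 probe sets of the leaf and chloroplast marker genes found were lower and 4 were higher (12 of the 18 marker symbols looked for had no probe set). Most of the 36 belong to 1 gene, rbcl, and these go both ways. Of all tested probe sets, 20.9% were called lower in roots. Among these markers the photosystem gene PsbO differed by -4.71 and the cytochrome b6f gene petC by as much as -6.64 on the log2 scale (root minus shoot). Of the 8 root marker symbols, 3 were found, with 5 probe sets, of which 3 were lower and 0 higher in roots, so they do not mark roots here.

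All 4 probe sets gave a lower signal in roots than in shoots of K307, K9107 and HD2967, and the gap was widest in K307. GA20ox1a averaged 2.88 ± 0.20 log2 in roots and 4.06 ± 0.85 in shoots of these genotypes (SD, n = 18 arrays each). GA20ox1b averaged 2.03 ± 0.17 in roots and 2.79 ± 0.85 in shoots. GA20ox1d averaged 3.35 ± 0.43 in roots and 5.21 ± 1.20 in shoots on S1_at, and 3.87 ± 0.36 in roots and 5.31 ± 0.94 in shoots on S1_x_at. For each probe set the shoot arrays spread more widely than the root arrays. Signals of different probe sets depend on their probes and are not compared as levels.

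**Figure D1:**
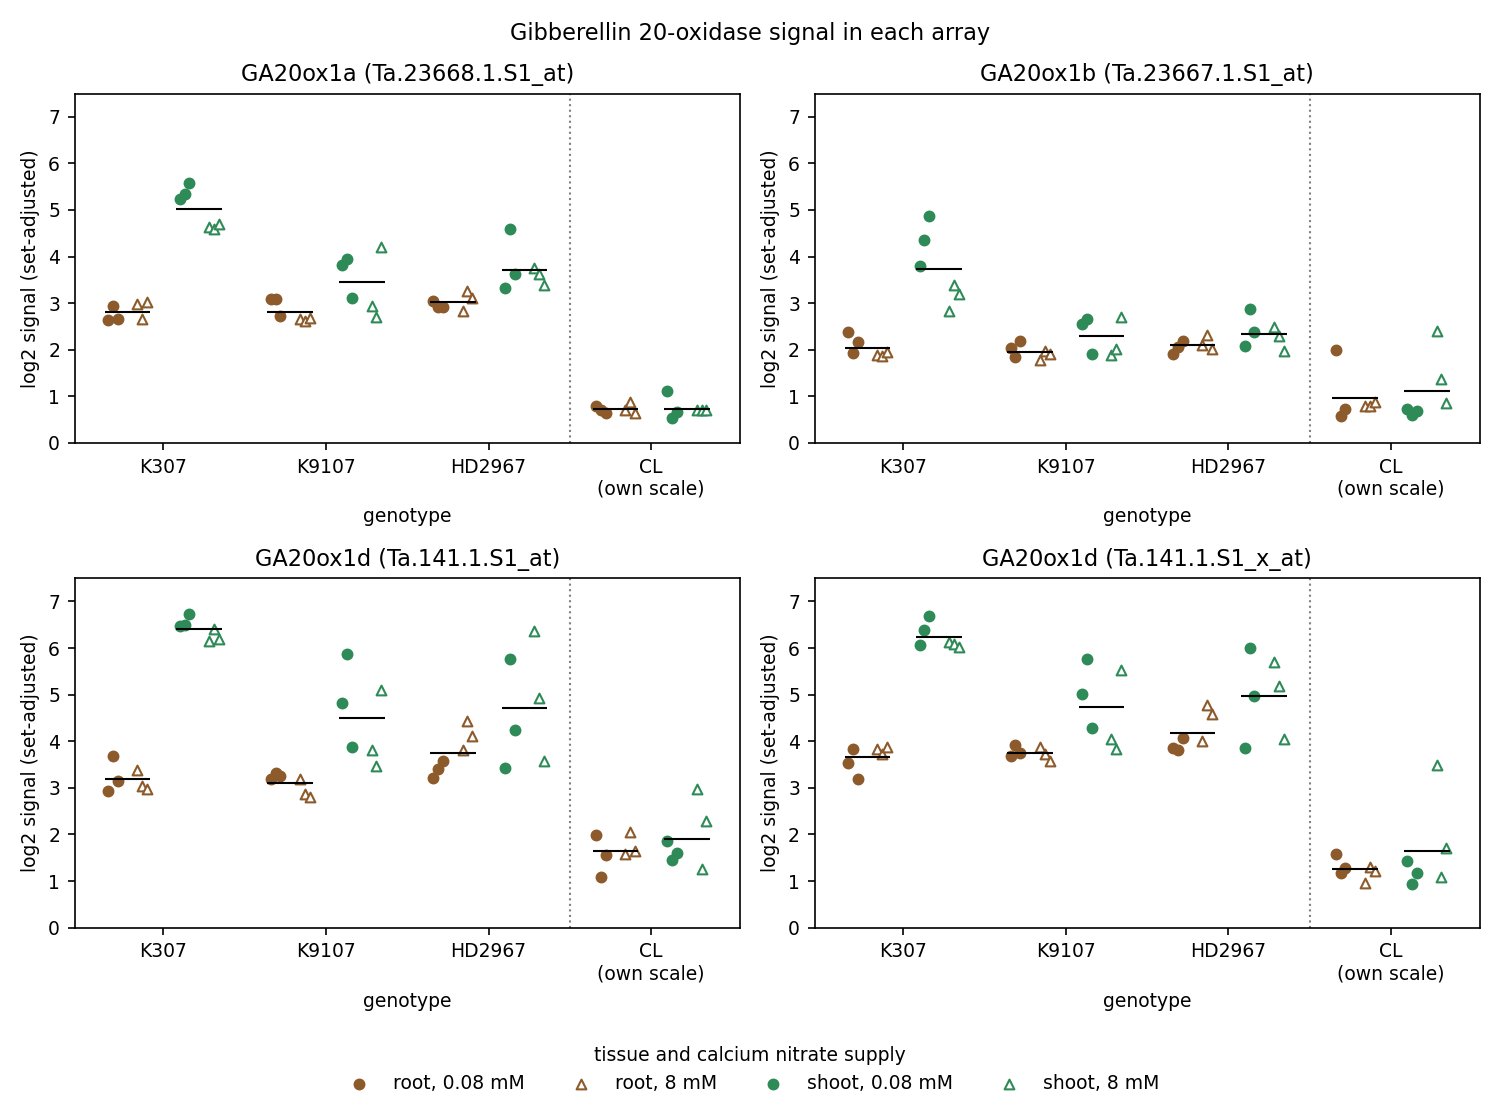
Set-adjusted log2 signal (vertical axis) of each of the 4 probe sets in every array, by genotype (horizontal axis), with roots in brown and shoots in green, filled circles for 0.08 mM and open triangles for 8 mM calcium nitrate, and a line at the mean of the 6 arrays of a genotype and tissue. K307 shoots have the highest mean in each panel, and their arrays run from 4.60 to 5.57 for GA20ox1a against 2.65 to 3.02 in K307 roots, and CL, right of the dotted line, is on its own scale.

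The rank of a probe set within its array moved with the normalization set, so it is given for each set in the order of rising array medians, with 6 root and 6 shoot arrays in each. In the sets shared by K307, K9107 and HD2967, GA20ox1a lay at a median above 33.3%, 21.9% and 14.7% of all probe sets in roots, against 60.3%, 34.9% and 32.3% in shoots. For GA20ox1b the median ranks were 4.60%, 4.50% and 7.05% in roots, against 21.2%, 10.6% and 20.1% in shoots. The S1_x_at probe set of GA20ox1d lay at 44.5%, 40.9% and 45.8% in roots, against 72.2%, 61.1% and 66.5% in shoots. The median rank was thus lower in roots than in shoots in each of these sets for these 3 probe sets, although the genotypes are not equally represented in them. In CL, a set of its own, the median rank was 22.3% in roots and 19.95% in shoots for GA20ox1a, 26.1% in roots and 29.4% in shoots for GA20ox1b, and 51.3% in roots and 53.9% in shoots for the GA20ox1d S1_x_at probe set.

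Averaged over K307, K9107 and HD2967 with equal weight, GA20ox1a was lower in roots by 1.18 on the log2 scale (root minus shoot -1.18 ± 0.11, SE, limma, adjusted p = 1.22e-11). GA20ox1b differed by -0.77 ± 0.13 (limma, adjusted p = 3.84e-06). The GA20ox1d probe sets differed by -1.85 ± 0.21 on S1_at (limma, adjusted p = 2.21e-09) and -1.44 ± 0.19 on S1_x_at (limma, adjusted p = 5.89e-08). All 4 passed the threshold of 0.05, as did 20.9% of the 61179 tested probe sets in this direction and 53.1% in either direction. The median root minus shoot over all probe sets was 0.07, and 3.28% to 8.65% of them had a lower estimate than a member. In whole tissue, fewer cells expressing a gene and less RNA per cell cannot be told apart. The direction and the call of all 4 were the same in arrays of either nitrogen supply alone: GA20ox1a gave -1.39 in stressed and -0.97 in control arrays, and GA20ox1b, with the smallest gap, -0.98 in stressed and -0.55 in control arrays. Here and below, contrasts of a single supply were taken from the same fit as the main contrast, with no array left out.

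The root minus shoot gap differed between the genotypes for every probe set. K307 had the largest gap. Its GA20ox1a signal was 2.65, 2.93 and 2.67 in stressed roots and 2.99, 2.65 and 3.02 in control roots, against 5.23, 5.34 and 5.57 in stressed shoots and 4.63, 4.60 and 4.71 in control shoots. No K307 root array reached the lowest K307 shoot array. How many of all probe sets separate groups of arrays in this way was not counted, here or below. GA20ox1b in K307 gave 2.38, 1.92 and 2.16 in stressed roots and 1.88, 1.87 and 1.95 in control roots, against 3.81, 4.35 and 4.87 in stressed shoots and 2.83, 3.40 and 3.20 in control shoots. The 6 root and 6 shoot arrays were again fully apart.

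The GA20ox1d S1_at probe set gave 2.94, 3.67 and 3.16 in stressed and 3.39, 3.04 and 2.98 in control K307 roots, against 6.46, 6.49 and 6.73 in stressed and 6.15, 6.40 and 6.20 in control K307 shoots. This was the widest gap of any member in K307, K9107 or HD2967. The estimates in K307 were -2.20 ± 0.19 for GA20ox1a (adjusted p = 5.31e-12), -1.71 ± 0.22 for GA20ox1b (adjusted p = 7.06e-08), and for GA20ox1d -3.21 ± 0.36 on S1_at (adjusted p = 5.06e-09) and -2.57 ± 0.33 on S1_x_at (adjusted p = 7.66e-08, all limma). In K307, 15.4% of all probe sets were called lower in roots.

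K9107 and HD2967 had smaller gaps. GA20ox1a in K9107 ran from 2.63 to 3.10 in roots, with a median of 2.70, and from 2.71 to 4.21 in shoots, with a median of 3.47. Of the 6 K9107 root arrays, 3 lay below every K9107 shoot array. In HD2967, GA20ox1a ran from 2.83 to 3.27 in roots, with a median of 2.98, and from 3.33 to 4.60 in shoots, with a median of 3.63, and the tissues did not overlap. The estimates were -0.64 ± 0.19 in K9107 (limma, adjusted p = 0.00758) and -0.71 ± 0.19 in HD2967 (limma, adjusted p = 0.00351). Without K9107 shoot control array 3 the K9107 value was -0.39 and did not pass (adjusted p = 0.0641), and without HD2967 shoot stressed array 2 the HD2967 value was -0.47 (adjusted p = 0.0432).

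GA20ox1b did not pass the test in either genotype: -0.33 ± 0.22 in K9107 (limma, adjusted p = 0.289, 95% confidence interval -0.79 to 0.12) and -0.25 ± 0.22 in HD2967 (limma, adjusted p = 0.440, interval -0.70 to 0.20). These intervals do not show that the tissues are alike. GA20ox1b is dim here in shoots as well as roots, with a median rank of 11.6% in K9107 shoots and 12.4% in HD2967 shoots. The GA20ox1d S1_at probe set differed by -1.39 ± 0.37 in K9107 (limma, adjusted p = 0.00312) and -0.96 ± 0.37 in HD2967 (limma, adjusted p = 0.0444). GA20ox1d S1_x_at differed by -0.99 ± 0.33 in K9107 (limma, adjusted p = 0.0211) and -0.78 ± 0.33 in HD2967, which did not pass (limma, adjusted p = 0.0769). Over the 3 genotypes, 9 of the 12 member tests passed, all lower in roots, beside 14.5% of all probe sets called lower in K9107 roots and 13.9% in HD2967 roots. The HD2967 call of GA20ox1d S1_at was lost in 9 of the 48 fits that left out 1 array (HD2967 root stressed arrays 1 and 2, root control arrays 1 and 3, shoot stressed array 2 and shoot control arrays 1 and 2, and K307 root stressed array 2 and root control array 1), and the value was -0.56 with an adjusted p of 0.275 without HD2967 shoot stressed array 2 and -0.61 without HD2967 shoot control array 1. That of GA20ox1d S1_x_at in K9107 was lost without K9107 shoot stressed array 2 (0.122) or K9107 shoot control array 3 (0.116). The 4 calls in K307 held under every alternative processing that gave a test (8, or 7 for GA20ox1b), while each of the 5 calls in K9107 and HD2967 was lost under at least 1. Without the normalization set term GA20ox1a, S1_at and S1_x_at of K9107 and S1_at of HD2967 did not pass (adjusted p = 0.0814, 0.107, 0.224 and 0.0805). After a second quantile normalization GA20ox1a and S1_x_at of K9107 and S1_at of HD2967 did not pass (adjusted p = 0.0765, 0.0880 and 0.111).

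In CL, none of the 4 passed (limma, adjusted p from 0.541 to 0.997, 0 of 4 under an unadjusted p of 0.05), while 8.65% of all probe sets were called lower in CL roots. GA20ox1a gave 0.79, 0.72 and 0.65 in stressed and 0.72, 0.88 and 0.65 in control CL roots, against 1.11, 0.54 and 0.66 in stressed and 0.71, 0.70 and 0.71 in control CL shoots. The tissues overlap fully, and the difference was -0.00 ± 0.19 (interval -0.38 to 0.37). GA20ox1b stood at 2.00 in CL root stressed array 1, whose tissue characteristic reads shoot, against 0.57 to 0.88 in the other CL root arrays. The leaf marker PsbO lay in that array below every CL shoot array. The differences were -0.14 ± 0.22 for GA20ox1b, -0.26 ± 0.36 for GA20ox1d S1_at and -0.39 ± 0.33 for GA20ox1d S1_x_at. These rest on single arrays: with 1 array left out they ran from -0.37 (without CL root stressed array 1) to 0.07 (without CL shoot control array 1) for GA20ox1b, from -0.49 to -0.06 for GA20ox1d S1_at and from -0.64 to -0.04 for GA20ox1d S1_x_at, the last 2 ranges running from the fit without CL shoot control array 2 to that without CL shoot control array 1. Since CL is on a scale of its own, the size of a gap there is not set against a gap in the other genotypes. PsbO and petC differed by -7.00 and up to -8.12 between CL roots and CL shoots.

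The test of the difference itself, across K307, K9107 and HD2967 (limma F-test of root minus shoot by genotype), gave adjusted p = 0.000108 for GA20ox1a, 0.00271 for GA20ox1b, 0.0105 for GA20ox1d S1_at and 0.0251 for GA20ox1d S1_x_at. All 4 passed, as did 5.08% of all probe sets. Root minus shoot of GA20ox1a was lower in K307 than in HD2967 (K307 minus HD2967 -1.49 ± 0.26, limma, adjusted p = 0.000537) and than in K9107 (K307 minus K9107 -1.56 ± 0.26, limma, adjusted p = 0.000440). K9107 minus HD2967 was 0.06 ± 0.27 (limma, adjusted p = 0.984). Among all probe sets, 3.09% were called in the K307 minus HD2967 test, 2.86% in K307 minus K9107 and 2.06% in K9107 minus HD2967. GA20ox1b followed the same order, with K307 minus HD2967 at -1.46 ± 0.31 (limma, adjusted p = 0.00440) and K307 minus K9107 at -1.38 ± 0.31 (limma, adjusted p = 0.0106). For GA20ox1d, K307 minus HD2967 passed on S1_at and S1_x_at. On S1_x_at it was lost in 3 of the 48 fits that left out 1 array (limma, adjusted p up to 0.0625). K307 minus K9107 passed on S1_at but was lost in 35 of these 48 fits (limma, adjusted p up to 0.103). On S1_x_at K307 minus K9107 did not pass, except in 8 of these fits. With the arrays quantile normalized again, the adjusted p of the F-test was 0.318 for GA20ox1b, 0.0566 for GA20ox1d S1_at and 0.171 for GA20ox1d S1_x_at, none of which passed. Without the set term the same 3 did not pass (0.236, 0.213 and 0.223), and without K307 shoot stressed array 3 that of GA20ox1d S1_x_at was 0.0536. In control arrays alone GA20ox1a did not pass either (adjusted p = 0.0694).

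**Figure D2:**
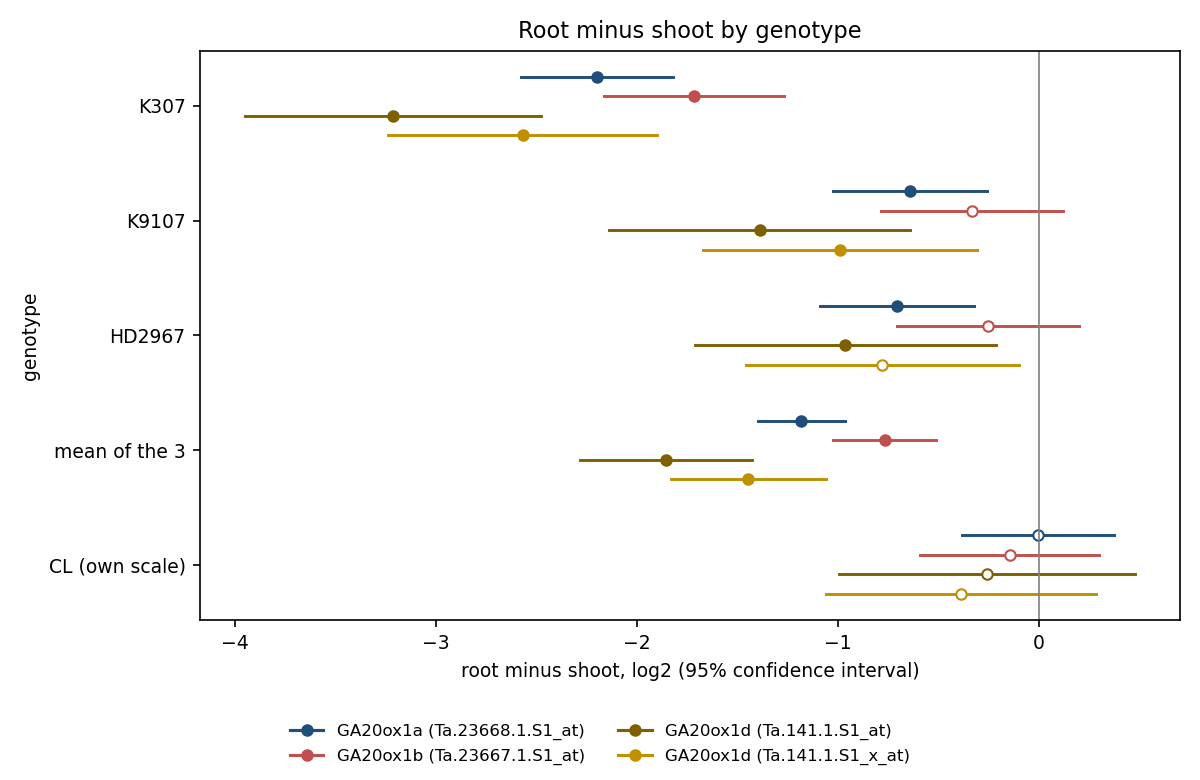
Root minus shoot difference in log2 signal (horizontal axis) by genotype (vertical axis) for the 4 probe sets, with 95% confidence intervals; filled points passed the adjusted p threshold of 0.05 and open points did not. K307 lies farthest from 0, from -3.21 to -1.71, and all 4 CL intervals cross 0.

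Within each normalization set that held both tissues of K307, where no set offset enters, GA20ox1a differed by -2.29, -2.18 and -1.95, and the GA20ox1d S1_at probe set by -3.35, -2.93 and -3.37. GA20ox1b differed by -1.50, -2.13 and -1.53. These within-set values had the sign of the K307 estimate in 3 of 3 sets for each probe set. Sets with both tissues of a genotype hold as few as 1 array of a tissue. For K307 they held 3, 2 and 1 arrays of each tissue, in the order of the values above. In such sets of the other genotypes, GA20ox1a differed by -0.70 and -0.74 in K9107, and by -1.68, -0.56 and -0.44 in HD2967.

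Within tissues, the genotypes differed in shoots. GA20ox1a averaged 5.01 ± 0.42 log2 in K307 shoots, 3.46 ± 0.61 in K9107 shoots and 3.72 ± 0.46 in HD2967 shoots (SD, n = 6 arrays each). All 6 K307 shoot arrays lay above all 12 shoot arrays of the other genotypes, although HD2967 shoot stressed array 2 (4.60) came level with the lowest K307 array (4.60) to the second decimal. GA20ox1b averaged 3.74 ± 0.76 in K307 shoots, 2.29 ± 0.39 in K9107 shoots and 2.35 ± 0.32 in HD2967 shoots, and 5 of the 6 K307 arrays lay above every other shoot array. The GA20ox1d S1_at probe set averaged 6.41 ± 0.21 in K307 shoots, 4.49 ± 0.92 in K9107 shoots and 4.72 ± 1.19 in HD2967 shoots. Its arrays spread more widely in K9107 and HD2967 shoots than in K307 shoots.

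The F-test of genotype in shoots over these 3 genotypes gave adjusted p = 0.000961 for GA20ox1a, 0.000964 for GA20ox1b, 0.0281 for GA20ox1d S1_at and 0.0798 for GA20ox1d S1_x_at (limma). Thus 3 of 4 probe sets passed, beside 11% of all probe sets. K307 shoots exceeded HD2967 shoots by 1.25 ± 0.26 for GA20ox1a (limma, adjusted p = 0.00450) and by 1.45 ± 0.26 for GA20ox1b (limma, adjusted p = 0.00178), while 3.58% of all probe sets were called higher in that comparison. The call of GA20ox1a was lost in stressed arrays alone (0.0569), in control arrays alone (0.262) and without K307 shoot stressed array 3 (0.0516), and that of GA20ox1b in control arrays alone (0.340), without the set term (0.128) and after a second quantile normalization (0.0764). K307 shoots exceeded K9107 shoots by 1.56 ± 0.26 for GA20ox1a (limma, adjusted p = 0.00115), 1.50 ± 0.27 for GA20ox1b (limma, adjusted p = 0.00220) and 1.98 ± 0.51 for GA20ox1d S1_at (limma, adjusted p = 0.0277), beside 2.8% of all probe sets. The GA20ox1a call held under all 9 alternatives. That of GA20ox1b was lost in control arrays alone (0.150), without the set term (0.161) and after a second quantile normalization (0.0698). That of GA20ox1d S1_at was lost in stressed arrays alone (0.432), in control arrays alone (0.0715), without the set term (0.221) and after a second quantile normalization (0.0689), and in 9 of the 24 fits that left out 1 shoot array, namely K307 stressed arrays 1, 2 and 3, K307 control arrays 2 and 3, K9107 stressed arrays 1 and 3, or K9107 control arrays 1 and 2 (adjusted p up to 0.213, without K9107 stressed array 3). The other GA20ox1d estimates were also above 0 and did not pass: against HD2967, 1.61 ± 0.50 for GA20ox1d S1_at (adjusted p = 0.0655) and 1.22 ± 0.47 for GA20ox1d S1_x_at (adjusted p = 0.147), and against K9107, 1.52 ± 0.47 for GA20ox1d S1_x_at (adjusted p = 0.0694, all limma).

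K9107 and HD2967 shoots were neighbours in the order of levels and did not differ beyond their spread on any probe set. K9107 minus HD2967 ran from -0.37 ± 0.52 to -0.05 ± 0.27 (limma, adjusted p from 0.651 to 0.965), and the interval for GA20ox1a was -0.86 to 0.25, while 6.09% of all probe sets were called. The genotype call of GA20ox1d S1_at in shoots was lost in 8 of the 24 fits that left out 1 shoot array (adjusted p from 0.0508 to 0.103), namely K307 stressed arrays 1, 2 and 3, K307 control arrays 2 and 3, K9107 stressed arrays 1 and 3, or K9107 control array 1. After a second quantile normalization the adjusted p was 0.0543 for GA20ox1b and 0.0704 for GA20ox1d S1_at.

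**Figure D3:**
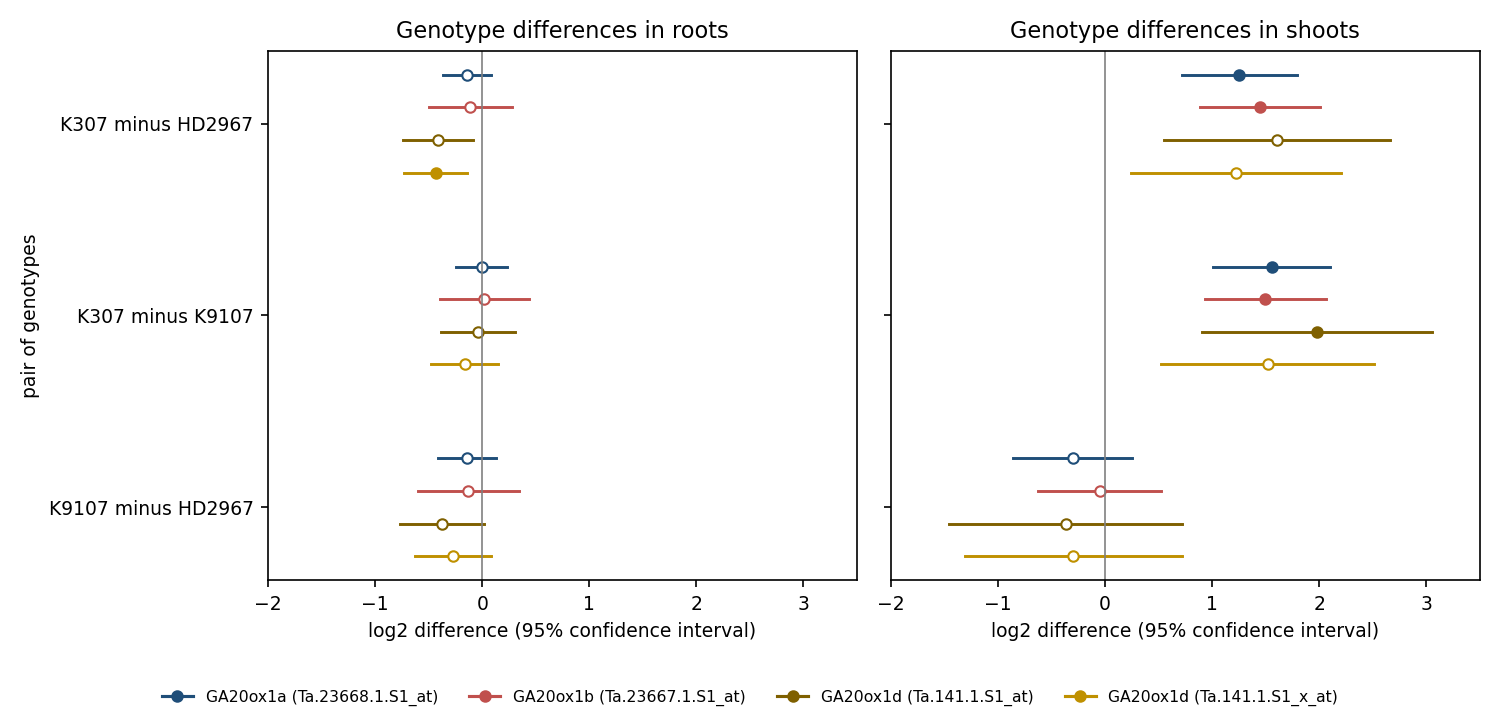
Difference in log2 signal between genotypes (horizontal axis) in roots (left) and shoots (right) for the 4 probe sets, with 95% confidence intervals; rows are the pairs of genotypes, and filled points passed the adjusted p threshold of 0.05. In shoots the K307 rows lie between 1.22 and 1.98, and in roots every estimate lies between -0.44 and 0.02.

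In roots the genotypes lay close together. GA20ox1a averaged 2.82 ± 0.18 in K307 roots, 2.81 ± 0.22 in K9107 roots and 3.02 ± 0.16 in HD2967 roots (SD, n = 6 arrays each). GA20ox1b averaged 2.03 ± 0.20 in K307, 1.96 ± 0.14 in K9107 and 2.10 ± 0.14 in HD2967 roots. GA20ox1d S1_x_at averaged 3.66 ± 0.27 in K307, 3.76 ± 0.13 in K9107 and 4.18 ± 0.40 in HD2967 roots. The F-test of genotype in roots passed for 0 of 4 probe sets (limma, adjusted p = 0.649 for GA20ox1a, 0.920 for GA20ox1b, 0.174 for GA20ox1d S1_at and 0.102 for GA20ox1d S1_x_at), beside 13.6% of all probe sets. Both GA20ox1d probe sets had an unadjusted p under 0.05. Of the 12 pairwise tests in roots 1 passed, GA20ox1d S1_x_at in K307 minus HD2967 at -0.44 ± 0.14 (limma, adjusted p = 0.0448), beside 6.14% of all probe sets called lower. In the other pairs of root groups 2.91% (K307 minus K9107) and 7.14% (K9107 minus HD2967) of all probe sets were called. That call was lost in 17 of 24 fits that left out 1 root array, with adjusted p up to 0.247 without K307 root control array 1. It held without K307 control array 3 or stressed array 1, HD2967 control array 1, CL stressed arrays 1 and 2, or CL control arrays 1 and 2. It was also lost under 6 of 9 alternatives (adjusted p up to 0.637, without the set term).

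Ordered by mean level over the 3 genotypes, each probe set had K307 shoots first, then HD2967 shoots, K9107 shoots, and the 3 root groups last. Among the root groups HD2967 was highest for each probe set. The step between K9107 shoots and HD2967 roots crosses both tissue and genotype and was not tested, and for GA20ox1b it was smaller than the SD of K9107 shoots (2.29 ± 0.39 against 2.10 ± 0.14).

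Histone genes varied widely among the shoot arrays. The median of 18 histone probe sets ran from 4.68 to 8.46 in K307 shoots, 2.81 to 6.79 in K9107 shoots and 3.41 to 9.05 in HD2967 shoots (set-adjusted log2), and across the 18 shoot arrays it correlated with the members at r = 0.24 (GA20ox1b) to 0.52 (GA20ox1d S1_at). Its mean was 6.77 ± 1.22 in K307 shoots, 4.57 ± 1.63 in K9107 shoots and 6.29 ± 2.24 in HD2967 shoots (SD, n = 6 arrays each). Leaving out HD2967 shoot control array 1 and K307 shoot control array 3 together reversed no called member result and lost 1 call, the HD2967 root minus shoot of GA20ox1d S1_at (-0.61). The part of this variation in the genotype differences was not tested.

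On the deposited scales the nitrogen supply gave no call for any member. HD2967 shoot arrays of the different supplies share no normalization set, so that estimate rests on the set offsets. Of 32 tests (4 probe sets, 4 genotypes, both tissues), 0 passed by limma, and 3 had an unadjusted p under 0.05. Among all probe sets, the share called was 1.99% in K307 roots, 0.907% in K9107 roots, 3.36% in HD2967 roots and 2.04% in CL roots. In shoots it was 0.0458% in K307, 0.105% in K9107, 0.036% in HD2967 and 3.36% in CL. The estimate with the smallest p was GA20ox1b in K307 shoots. Its set-adjusted signal was 3.81, 4.35 and 4.87 in stressed shoots against 2.83, 3.40 and 3.20 in control shoots. The estimate from the shoot fit was 1.26 ± 0.37 (limma, adjusted p = 0.574). The groups do not overlap. The share of all probe sets that separate in this way was not counted, and the 0.0458% above is the share called by limma. GA20ox1a did not overlap there either (5.23, 5.34 and 5.57 in stressed, against 4.63, 4.60 and 4.71 in control shoots) and differed by 0.71 ± 0.36 (limma, adjusted p = 1.00).

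In CL shoots GA20ox1b ran the other way: 0.74, 0.59 and 0.68 in stressed, against 2.41, 1.38 and 0.85 in control shoots, a difference of -0.88 ± 0.36 (limma, adjusted p = 0.211). Again the groups do not overlap, which was not counted over all probe sets, of which 3.36% were called by limma. The estimate depended on the processing and on single arrays. It was -1.94 and passed after a second quantile normalization (adjusted p = 0.0176), -1.22 without CL shoot control array 3 (adjusted p = 0.0497) and -0.44 without CL shoot control array 1 (adjusted p = 0.631). GA20ox1a in K9107 roots gave 3.09, 3.10 and 2.72 in stressed, against 2.67, 2.63 and 2.69 in control roots, a difference of 0.31 ± 0.14 (limma, adjusted p = 0.628). The test of whether the GA20ox1b response in shoots differed between the 4 genotypes, which compares responses on 2 scales, gave an adjusted p of 0.304 (limma F-test), beside 0.0588% of all probe sets called.

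Averaged over the 4 genotypes, the stressed minus control difference of GA20ox1b was 0.12 ± 0.13 in roots (95% confidence interval -0.15 to 0.38) and 0.19 ± 0.19 in shoots (interval -0.20 to 0.59). CL, on its own scale, has the same weight in these averages as each other genotype, so they mix unlike scales. The GA20ox1d S1_at probe set gave -0.05 ± 0.11 in roots and -0.07 ± 0.35 in shoots (interval -0.81 to 0.67). No member passed in these averages, beside 6.57% of all probe sets in roots and 0.842% in shoots. The test of this average response in roots minus that in shoots passed for 0 of 4 probe sets (limma, adjusted p from 0.404 to 0.964, 1.63% of all probe sets called). In simulated data, 94 of 100 planted changes of 1 log2 unit in the root average and 87 of 100 in the shoot average were recovered over 61179 probe sets, and 56 and 46 of 100 changes of 0.5 in the same tissue order. The planted probe sets were drawn at random, each with its own spread, so recovery at the spread of a member was not tested.

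**Figure D4:**
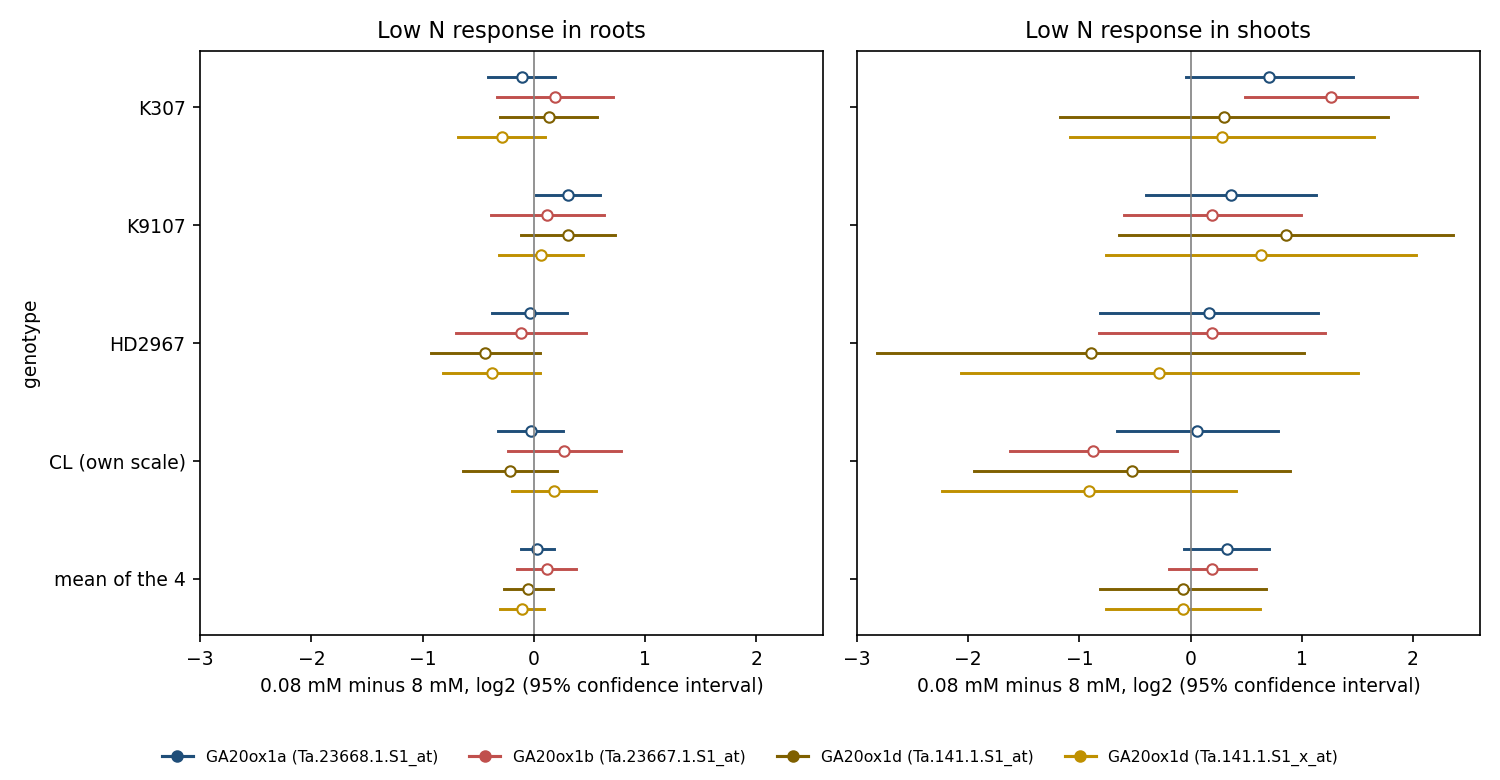
Stressed minus control (0.08 mM minus 8 mM calcium nitrate) difference in log2 signal (horizontal axis) in roots (left) and shoots (right), by genotype (vertical axis), for the 4 probe sets, with 95% confidence intervals. All points are open because none passed the adjusted p threshold of 0.05; GA20ox1b lies at 1.26 in K307 shoots and at -0.88 in CL shoots.

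The homoeologues were set against each other by the difference of their log2 signals within each array. This cancels only what shifts all probe sets of an array alike. Only changes of such a difference between tissues or genotypes are compared, since each probe set has its own baseline. Normalization set offsets differ between probe sets and do not cancel. They moved HD2967 root stressed array 2 from 3.53 to 2.91 for GA20ox1a and from 1.85 to 2.07 for GA20ox1b. The permutation tests were made within sets. GA20ox1d was read from S1_x_at, its probe set of higher mean over the root and shoot arrays of K307, K9107 and HD2967. In CL, and in K307 shoots, S1_at had the higher mean. Root minus shoot of the GA20ox1a minus GA20ox1b difference was -0.42, so the signal gap between the tissues was wider for GA20ox1a than for GA20ox1b (permutation test within genotype and set, 35 arrays in 8 strata, two-sided, p = 0.000540, 0.000810 after Benjamini-Hochberg adjustment over 3 pairs). For GA20ox1b minus GA20ox1d it was 0.72 (permutation p = 0.000140, adjusted 0.000420), and for GA20ox1a minus GA20ox1d 0.30 (permutation p = 0.00712, adjusted 0.00712). With the mean of both GA20ox1d probe sets the last 2 differences were 0.94 and 0.52. These are differences between signals of unlike probes, and no order of the transcripts' own changes is drawn from them.

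Per genotype, the GA20ox1a minus GA20ox1b difference averaged 0.79 ± 0.34 in roots and 1.27 ± 0.39 in shoots of K307, 0.86 ± 0.26 in roots and 1.17 ± 0.27 in shoots of K9107, and 0.92 ± 0.17 in roots and 1.37 ± 0.18 in shoots of HD2967 (SD, n = 6 arrays each). Every genotype on the shared scale had the smaller value of this difference in roots. The GA20ox1a minus GA20ox1d difference changed less in HD2967, from -1.17 ± 0.28 in roots to -1.24 ± 0.55 in shoots. It averaged -0.84 in roots and -1.22 in shoots of K307, and -0.94 in roots and -1.29 in shoots of K9107. Whether this change differs between genotypes was not tested. GA20ox1b lies near the dim end of the arrays in roots, with ranks from 1.95% to 9.98% in the root arrays of these genotypes. In shoots its ranks ran from 1.27% to 23.5% in K9107, 3.12% to 21.7% in HD2967 and 20.7% to 53.5% in K307. Its mean rank over all arrays lies in the lowest 0.25 of probe sets. The part of this in its narrower gap was not tested. In CL the changes were 0.14, 0.39 and 0.24 for GA20ox1a minus GA20ox1b, GA20ox1a minus GA20ox1d and GA20ox1b minus GA20ox1d (exact permutation test, 924 arrangements of 12 arrays, p = 0.684, 0.465 and 0.351), so none was larger than the spread.

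The within-array differences did not change detectably between genotypes. In shoots, the F statistic over K307, K9107 and HD2967 had a permutation p of 0.407 for GA20ox1a minus GA20ox1b, 0.944 for GA20ox1a minus GA20ox1d and 0.860 for GA20ox1b minus GA20ox1d (18 arrays, adjusted p from 0.815 to 0.963 over the 6 tests). The set-centred shoot means of GA20ox1a minus GA20ox1d were 0.02 in K307, -0.05 in K9107 and 0.03 in HD2967. In roots the permutation p ran from 0.120 to 0.963 (adjusted 0.702 to 0.963). A p that misses the threshold does not show that the homoeologues keep a fixed ratio.

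Across the 36 arrays of the 3 genotypes, with each normalization set centred, GA20ox1a correlated with GA20ox1b at Pearson r = 0.92 and with GA20ox1d S1_x_at at r = 0.95, and GA20ox1b with GA20ox1d S1_x_at at r = 0.85. These arrays share tissue and genotype. Among the 18 shoot arrays, after the mean of each group was removed, r was 0.81, 0.90 and 0.82 for the same pairs, so arrays of one group that were high for one homoeologue were high for the others. Among the 18 root arrays the same values were -0.30, 0.63 and -0.05. The GA20ox1d probe sets correlated with each other at 0.95 in shoots and 0.73 in roots. In the 12 CL arrays GA20ox1a correlated with GA20ox1b at 0.04, and GA20ox1b with GA20ox1d S1_x_at at 0.78. These correlations are descriptions.

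**Figure D5:**
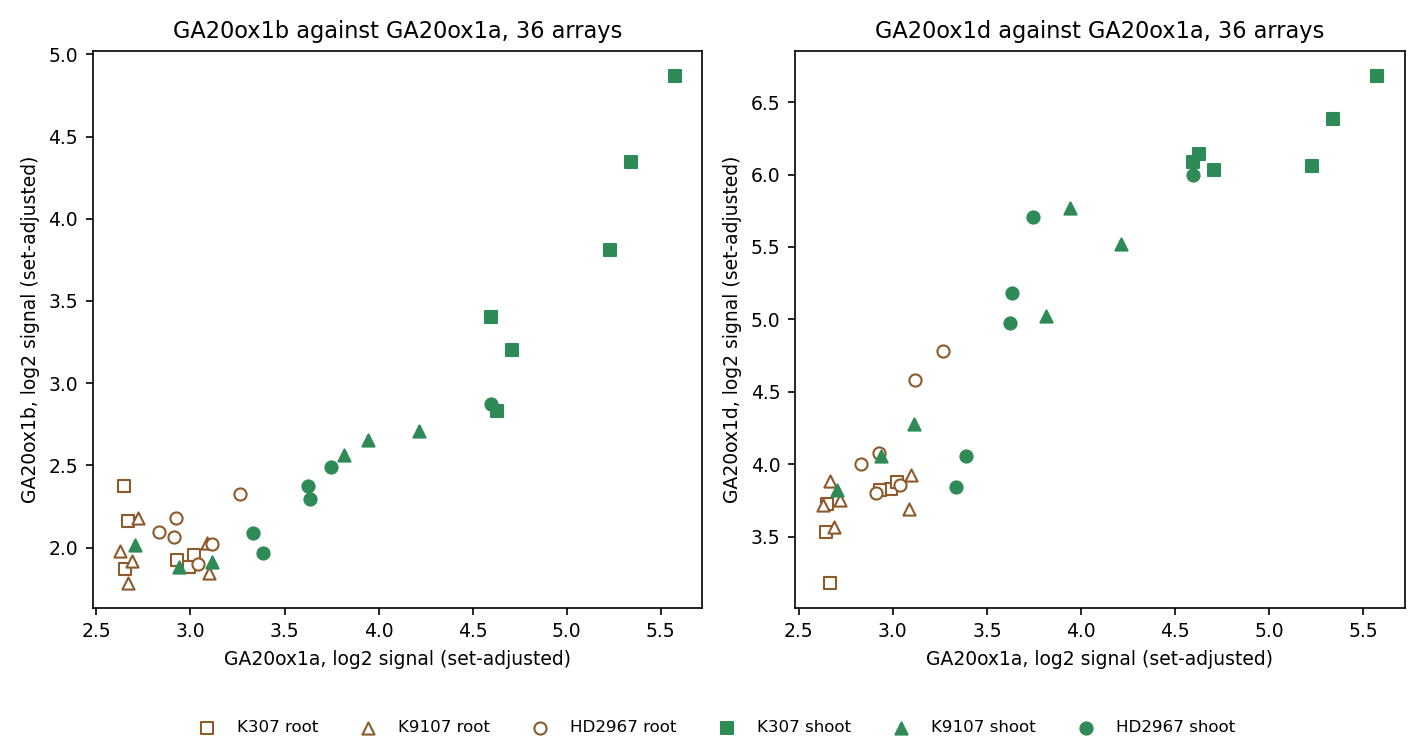
Set-adjusted log2 signal of GA20ox1b (left, vertical axis) and of GA20ox1d on S1_x_at (right, vertical axis) against GA20ox1a (horizontal axis) in the 36 arrays of K307, K9107 and HD2967, with roots as open and shoots as filled symbols. The root arrays form a cloud between 2.63 and 3.27 on the horizontal axis with no shared slope for GA20ox1b, and the shoot arrays run upward to the K307 arrays.

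Of the 196 other probe sets with an informative gene name, those with the pattern most like GA20ox1a over the 36 arrays were a probe set of rbcl, the Rubisco large subunit (r = 0.85), and 2 probe sets of Prx1 (r = 0.83 each). For GA20ox1b they were 2 rbcl probe sets (r = 0.78 and 0.70) and XTH, a xyloglucan endotransglucosylase/hydrolase that remodels the cell wall (r = 0.69). For GA20ox1d they were BMY1, a beta-amylase (r = 0.88), Prx1 (r = 0.86) and XTH (r = 0.86). Within the 18 shoot arrays these r values ran from 0.52 to 0.84 and within the 18 root arrays from -0.17 to 0.34. Among all 61175 other probe sets, 0.714% had an r above 0.8 with GA20ox1a, 0.0474% with GA20ox1b and 1.11% with GA20ox1d. The gene rbcl has many probe sets, which do not behave alike: their root minus shoot over the 3 genotypes ran from -3.92 to 0.49. It was -2.23 for the rbcl probe set most like GA20ox1a, and -0.40 and -0.27 for those most like GA20ox1b. Likeness to 1 of them is therefore not likeness to the gene.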

How the data were processed

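The deposited values are log2 signal intensities, made by the authors with RMA per the submitters' processing notes; the RMA version, its settings and the arrays run together are not stated in the labels used here. Of 61290 probe sets, 111 control probe sets were left out. The annotation pairs 1273 probe sets with 1 gene, 0 with several, and leaves 60017 unnamed here; 102 genes carry an informative name. The reference table, searched by symbol and synonym, located all 3 members. CL root stressed array 1 is a root by title and description and a shoot by its tissue characteristic, and was analysed as a root. With it counted as a root, 10 of the 36 leaf and chloroplast marker probe sets showed no overlap of roots and shoots in any set. PsbO was among them, so its signal in this array lay below every CL shoot array. No array duplicated another of its own group (0 identical columns), and arrays of different groups were not compared for this.

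Linear models were fitted with limma 3.58.1 under R 4.3.3 (empirical Bayes, two-sided), and p-values were adjusted over all 61179 probe sets by Benjamini-Hochberg with 0.05 as the threshold. Tissue contrasts came from 1 fit of 48 arrays, and genotype and nitrogen contrasts from 1 fit of 24 arrays per tissue (30 and 14 residual degrees of freedom). Every fit held the 16 or fewer group means and the normalization set, read from gaps above 0.1 between array medians. In the 48-array fit the median residual SD was 0.245 with the set term, against 0.451 without it. Differences between homoeologues were tested by permutation (100000 resamples, or all 924 arrangements in CL, python 3.11.15 and scipy 1.17.1). One of 36 arrays, whose set held its genotype in 1 tissue only, gave no information there, leaving 35. For these differences each gene was represented by its probe set of higher mean. The members, the gene lists, the normalization sets and the tests were chosen with earlier results of these data known. Named genes were the 3 informative probe sets most correlated with each member.

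The fits were tested on simulated data: for root minus shoot over the 3 genotypes, 99 of 100 planted differences of 1 log2 unit and 72 of 100 of 0.5 were recovered over 61179 probe sets. The planted probe sets were drawn at random and not by the spread of the members. The number of arrays limits the precision. Same-numbered arrays were checked for shared deviations in 16 pairings. All 3 correlations passed 0.1 in CL shoots (stressed with control, 0.115 to 0.228) and in stressed K9107 (root with shoot, 0.169 to 0.271), from the values alone and not from the labels. The whole range was -0.622 to 0.567.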

Additional observations from a re-analysis of the deposited data

Results flagged for a closer look

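The root minus shoot difference of each of the 4 probe sets differed between K307, K9107 and HD2967 by the limma F-test of that difference: the adjusted p was 0.000108 for GA20ox1a, 0.00271 for GA20ox1b, 0.0105 for S1_at and 0.0251 for S1_x_at of GA20ox1d. In each case K307 had the largest gap, at -2.20 ± 0.19, -1.71 ± 0.22, -3.21 ± 0.36 and -2.57 ± 0.33 in the same order (SE, 6 arrays per tissue). Set against K9107 alone, the wider K307 gap did not pass on S1_x_at. On S1_at that call was lost in 35 of 48 fits that left out 1 array. The cause was not tested.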

How the results depend on the processing

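Over 52 main results, 302 alternatives other than leaving out 1 array were run, of which 280 stayed on their side of the threshold, 22 changed side and 0 reversed a called direction; 16 uncalled estimates differed in sign. The root minus shoot means of the 3 genotypes passed in all alternatives that gave a value, and GA20ox1b had none with the dimmest 0.25 of probe sets left out, where it falls. Other values are adjusted p of F-tests, and S1_at and S1_x_at are the GA20ox1d probe sets. Without the set term, root minus shoot by genotype gave 0.236 for GA20ox1b, 0.213 for S1_at and 0.223 for S1_x_at, and genotype in shoots 0.126 for GA20ox1b and 0.219 for S1_at. With quantile normalization again they were 0.318, 0.0566 and 0.171 by genotype, and 0.0543 and 0.0704 in shoots. In stressed arrays alone, root minus shoot by genotype was 0.299 for S1_at and 0.350 for S1_x_at, and genotype in shoots 0.301 for S1_at. In control arrays alone, by genotype was 0.0694, 0.240, 0.110 and 0.209 for GA20ox1a, GA20ox1b, S1_at and S1_x_at, and genotype in shoots 0.158 for GA20ox1b and 0.128 for S1_at. These contrasts of a single supply compare fewer arrays, but their spread and set offsets come from the fit of both supplies. One fit of 48 arrays gave calls for S1_x_at by genotype in shoots (0.00254) and for the GA20ox1b nitrogen response by genotype in shoots (0.0484). The causes of these changes were not tested.

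With a replicate block, genotype in shoots was 0.0536 for S1_at, and no other main call changed; the numbers were not taken to pair arrays outside CL shoots and stressed K9107, and the CL nitrogen and K9107 root minus shoot calls did not change. Among single contrasts the block removed K307 minus HD2967 in shoots for GA20ox1a (0.76, adjusted p = 0.0862) and GA20ox1b (1.12, adjusted p = 0.0716) and in roots for S1_x_at (adjusted p = 0.167), and, for S1_at, root minus shoot in HD2967 (adjusted p = 0.0596) and its K307 minus K9107 difference (adjusted p = 0.0715). It called K9107 minus HD2967 in shoots for GA20ox1a (-1.07, adjusted p = 0.0216) and K307 minus K9107 in shoots for S1_x_at (adjusted p = 0.0353).

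Leaving out 1 array at a time, genotype in shoots ran from 0.00667 to 0.103 for S1_at and from 0.0299 to 0.226 for S1_x_at, genotype in roots from 0.0154 to 0.391 for S1_x_at, and root minus shoot by genotype from 0.00578 to 0.0536 for S1_x_at; no other main call changed. S1_x_at was called in shoots without K9107 shoot control array 3, HD2967 shoot stressed array 2 or CL shoot control array 1, and in roots without HD2967 root control array 1. The methods' t-test at p of at most 0.1, on deposited values without the set term, passed 3 of 32 member tests (1565 to 11194 of all probe sets) and 0 after Benjamini-Hochberg adjustment. Without centring on the set, BMY1 replaced rbcl among the names most like GA20ox1a, and a further rbcl probe set replaced XTH for GA20ox1b.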
